A study of Homo sapiens with 12 samples.

Results

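JUN and FOSL1 encode subunits of AP-1. Both were chosen by name, with earlier results of these data known, as 2 of 14582 genes that 12 Affymetrix arrays measured in SK-MEL-2 cells. Each gene was represented by its single probe set. SK-MEL-2 is an established human melanoma cell line, so every result concerns 1 line, 1 dose of each agent and 1 time. All cultures were exposed for 24 hours. DTE cells received dabrafenib at 100 nM, trametinib at 10 nM and entinostat at 1 µM, DT cells received dabrafenib and trametinib at those doses, E cells received entinostat alone, and DMSO cells received the vehicle. Dabrafenib blocks RAF kinases, trametinib blocks MEK1 and MEK2, and entinostat inhibits histone deacetylases of class I. Crossing the MAPK inhibitors with entinostat lets each effect be read alone and on top of the other. There were 3 arrays in each of the 4 groups. The titles name the replicates biological while the design text speaks of technical triplicates, so the p-values below speak for the spread among these arrays, which may be technical.

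AP-1 is a family of paired transcription factors. JUN proteins can pair with one another or with FOS proteins, whereas FOS proteins need a partner such as JUN, and the pair binds a short DNA element through a basic leucine zipper. JUN is activated by JNK kinases, and its protein can bind the promoter of its own gene. FOSL1 encodes Fra-1, a FOS protein without the strong activation domain of FOS, whose transcript and protein stability both depend on ERK signalling. In melanoma, high JUN has been tied to a dedifferentiated state with little MITF. The arrays measured transcripts, so the level and activity of the proteins were not tested.

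JUN lies on chromosome 1 (58780791 to 58784047 in GRCh38.p14), and FOSL1 lies on chromosome 11 (65892049 to 65900545). The promoter of JUN is shown because it holds the elements through which JUN proteins are known to act on their own gene. It covers the 250 bases before the gene's start on the minus strand, chr1:58784048-58784297 in GRCh38.p14 (RefSeq), with matches to TGACATCA and TTACCTCA in capitals.
JUN: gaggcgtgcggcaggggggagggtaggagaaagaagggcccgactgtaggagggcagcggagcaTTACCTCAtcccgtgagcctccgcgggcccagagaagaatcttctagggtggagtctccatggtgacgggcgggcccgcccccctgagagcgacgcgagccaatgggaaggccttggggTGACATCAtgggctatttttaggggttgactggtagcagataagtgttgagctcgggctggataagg
The first of these, TTACCTCA, ran from position -186 to -179 relative to the start, and TGACATCA ran from -67 to -60. On either strand, TTACCTCA occurred in 0.644% and TGACATCA in 2.38% of 35116 promoters of the same length. The AP-1 consensus TGANTCA occurred in 6.57% of all promoters and had no match in this one. Of the 7 genes for JUN and FOS proteins, 6 had a promoter in the RefSeq table, FOSL1 being the exception. Among these 6, JUND held the CRE element TGACGTCA, which 1.65% of promoters hold. Apart from JUN and JUND, no member held TGANTCA, TGACATCA, TTACCTCA or TGACGTCA. A match describes letters and not binding.

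The arrays did not share one overall level, and this touches every change below. The geometric mean over the genes brighter than the median gene lay between 61.2 and 68.5 in DTE, 94.8 and 108 in DT, 124 and 161 in E, and 112 and 139 in DMSO. The median gene differed by -0.54 on the log2 scale between DTE and DMSO, by -0.41 between DTE and DT, by -0.82 between DTE and E, by -0.12 between DT and DMSO and by 0.14 between E and DMSO. No source used here says how the deposited values were scaled between arrays, so a change after quantile normalization, which gives all arrays 1 distribution, follows each deposited change as its quantile value. Of 8 melanocyte markers 7 were measured and all were above background in every group, with a summed intensity of 2427 to 2630 in DTE, 4205 to 4734 in DT, 4252 to 6092 in E and 5044 to 5737 in DMSO. Of 10 markers of epithelium, leukocytes and endothelium 5 were measured, and 4 of them were above background in every group. The 5 summed to 87.9 to 96.0 in DTE, 132 to 149 in DT, 156 to 178 in E and 102 to 108 in DMSO.

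JUN was highest in DT cells and fell back when entinostat was added. Its intensity was 147, 159 and 139 in DTE cells, 563, 483 and 521 in DT cells, 239, 223 and 205 in E cells, and 115, 129 and 101 in DMSO cells. The 4 groups did not overlap, and the order of levels was DT, E, DTE and DMSO from high to low. FOSL1 followed another pattern. Its intensity was 34.2, 44.2 and 36.9 in DTE cells, 114, 104 and 101 in DT cells, 209, 247 and 233 in E cells, and 244, 245 and 230.1 in DMSO cells. The E and DMSO arrays overlapped, all DT arrays lay below both, and all DTE arrays lay below the DT arrays.

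After quantile normalization the JUN intensity was 265, 259 and 219 in DTE cells, 569, 532 and 508 in DT cells, 203, 164 and 134 in E cells, and 85.3, 96.3 and 93.3 in DMSO cells. DTE and E thus traded places in the order, while DT stayed highest and DMSO lowest. The FOSL1 intensity was then 57.3, 70.2 and 55.9 in DTE cells, 111, 117 and 99.5 in DT cells, 179, 184 and 154 in E cells, and 179, 179 and 211 in DMSO cells. Its order of levels was the one seen in deposited values.

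**Figure D1:**
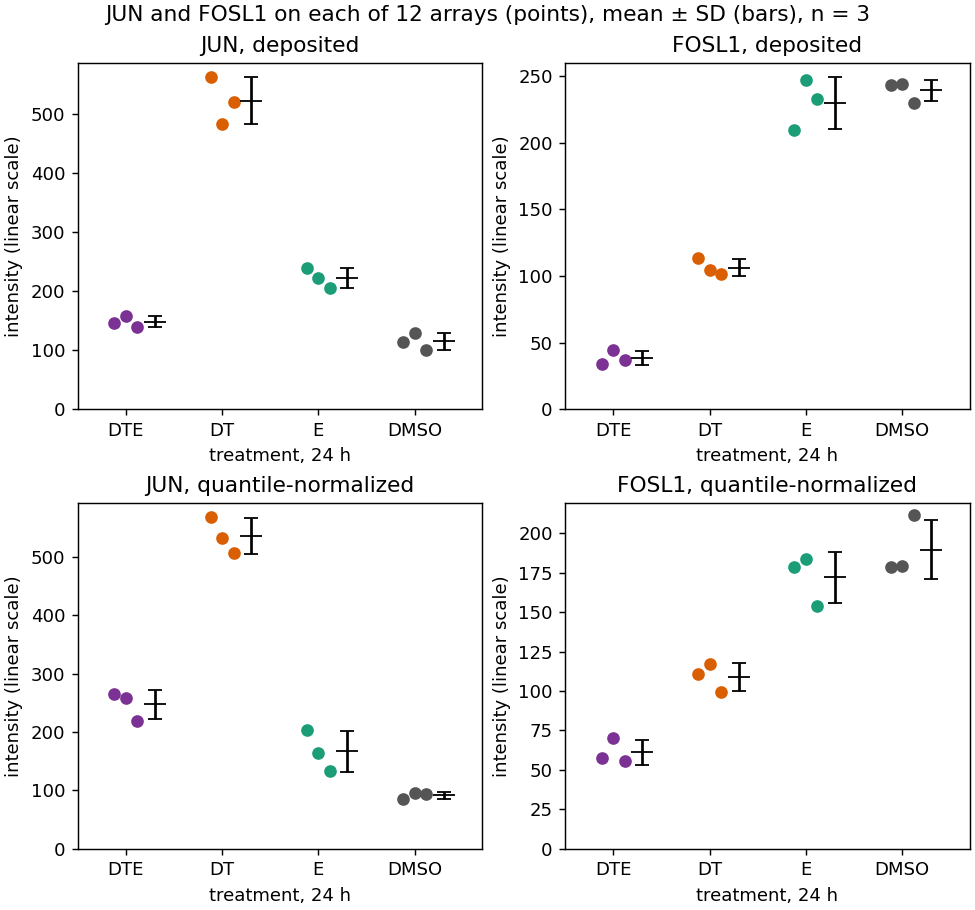
Intensity (linear scale) of JUN (left) and FOSL1 (right) on each array in DTE, DT, E and DMSO cells, as deposited (top) and after quantile normalization (bottom), with points for arrays and bars for mean ± SD (n = 3). JUN peaks in DT under both scalings, and FOSL1 is lowest in DTE under both.

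The combination raised JUN and lowered FOSL1 against vehicle, and the size of the JUN rise depended on the scaling between arrays. JUN averaged 148 ± 9.74 in DTE and 115 ± 14.2 in DMSO (SD, n = 3 each), a 1.30-fold rise (log2 0.37 ± 0.14 SE, adjusted p = 0.019 by limma, quantile 1.43, adjusted p = 1.7e-06). This call was lost without DMSO replicate 3 (0.28, adjusted p = 0.087) and without DTE replicate 2 (0.32, adjusted p = 0.083). With arrays centred on their median the JUN change was 1.02. FOSL1 averaged 38.5 ± 5.18 in DTE and 239 ± 8.15 in DMSO (SD, n = 3 each). It fell 6.26-fold (-2.65 ± 0.14, adjusted p = 8.3e-13, quantile -1.64, adjusted p = 1.6e-07) and stood at rank 30 from the lowest of 14582 genes, or rank 42 by the quantile value. Across all genes, 4.26% were called higher and 60.8% lower in DTE than in DMSO, or 20.5% and 22.4% after quantile normalization. The genes brighter than the median gene stood at 50.8% of its DMSO level in DTE, FOSL1 at 16.1% and JUN at 129%.

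Entinostat on top of dabrafenib and trametinib lowered the transcripts of both genes. JUN averaged 148 ± 9.74 in DTE and 523 ± 40.1 in DT (SD, n = 3 each), a 3.53-fold fall (-1.82 ± 0.14, adjusted p = 7.4e-10, quantile -1.12, adjusted p = 2.4e-05). It stood at rank 77 from the lowest of all genes, or rank 106 by the quantile value. FOSL1 averaged 38.5 ± 5.18 in DTE and 106 ± 6.36 in DT (SD, n = 3 each), a 2.78-fold fall (-1.47 ± 0.14, adjusted p = 1.3e-08, quantile -0.84, adjusted p = 7.9e-05). In this comparison 4.09% of genes were called higher and 54% lower, or 16.4% and 17.9% after quantile normalization. Both falls therefore exceeded the shift of the median gene.

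Dabrafenib and trametinib on top of entinostat lowered FOSL1, and the direction for JUN depended on the scaling. FOSL1 averaged 38.5 ± 5.18 in DTE and 230.0 ± 19.2 in E (SD, n = 3 each), and fell (-2.59 ± 0.14, adjusted p = 2.6e-12, quantile -1.50, adjusted p = 2.9e-06). It held rank 14 from the lowest of all genes, or rank 16 by the quantile value. JUN averaged 148 ± 9.74 in DTE and 222 ± 17.1 in E (SD, n = 3 each). It fell in deposited values (-0.58 ± 0.14, adjusted p = 4.7e-04) and rose after quantile normalization (0.58, adjusted p = 0.0068). Across all genes 0.247% were called higher and 78.5% lower in deposited values, and 10.1% and 9.99% once quantile-normalized.

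Dabrafenib and trametinib alone moved the transcripts of the 2 genes in opposite directions. JUN averaged 523 ± 40.1 in DT and 115 ± 14.2 in DMSO (SD, n = 3 each), a 4.57-fold rise (2.19 ± 0.14, adjusted p = 5.4e-11, quantile 2.55, adjusted p = 2.4e-08). That was rank 7 from the highest of 14582 genes, or rank 5 by the quantile value. FOSL1 averaged 106 ± 6.36 in DT and 239 ± 8.15 in DMSO (SD, n = 3 each), a 2.25-fold fall (-1.17 ± 0.14, adjusted p = 4.5e-07, quantile -0.80, adjusted p = 1.3e-04). It held rank 394 from the lowest. Between DT and DMSO 4.72% of genes were called higher and 23.1% lower, or 15.1% and 14.6% after quantile normalization.

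Entinostat alone raised JUN. JUN averaged 222 ± 17.1 in E and 115 ± 14.2 in DMSO (SD, n = 3 each), a 1.94-fold rise (0.96 ± 0.14, adjusted p = 9.3e-06, quantile 0.85, adjusted p = 2.8e-04). FOSL1 averaged 230.0 ± 19.2 in E and 239 ± 8.15 in DMSO (SD, n = 3 each), a difference of -0.06 ± 0.14 that missed the threshold (adjusted p = 0.79, quantile -0.14, adjusted p = 0.4). The 95% interval of that difference ran from -0.34 to 0.22 on the log2 scale. Here 20.8% of genes were called higher and 4.81% lower, or 15.1% and 16.3% after quantile normalization. Entinostat thus raised JUN without the MAPK inhibitors and lowered it with them, under both scalings.

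Both genes departed from additivity on the log2 scale. The interaction, which is the effect of entinostat on top of DT minus its effect alone, was -2.77 ± 0.19 for JUN (adjusted p = 2.3e-09, quantile -1.97, adjusted p = 1.4e-04). Had the effects of DT and E added up, JUN in DTE would have reached a geometric mean of 1013, and the observed 148 was 14.6% of that. For FOSL1 the interaction was -1.41 ± 0.19 (adjusted p = 1.8e-05, quantile -0.70, adjusted p = 0.028), and the observed geometric mean of 38.2 was 37.5% of the additive 102. With quantile-normalized values, the observed level was 25.6% of the additive one for JUN and 61.6% for FOSL1. The median gene had an interaction of -0.63 in deposited values and 0.0015 after quantile normalization. JUN stood at rank 4 from the lowest of all genes under both scalings, and FOSL1 at rank 260, or 196 by the quantile value. Of all genes 0.206% were called higher and 62.5% lower in the interaction, against 2.08% and 2.12% after quantile normalization.

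**Figure D2:**
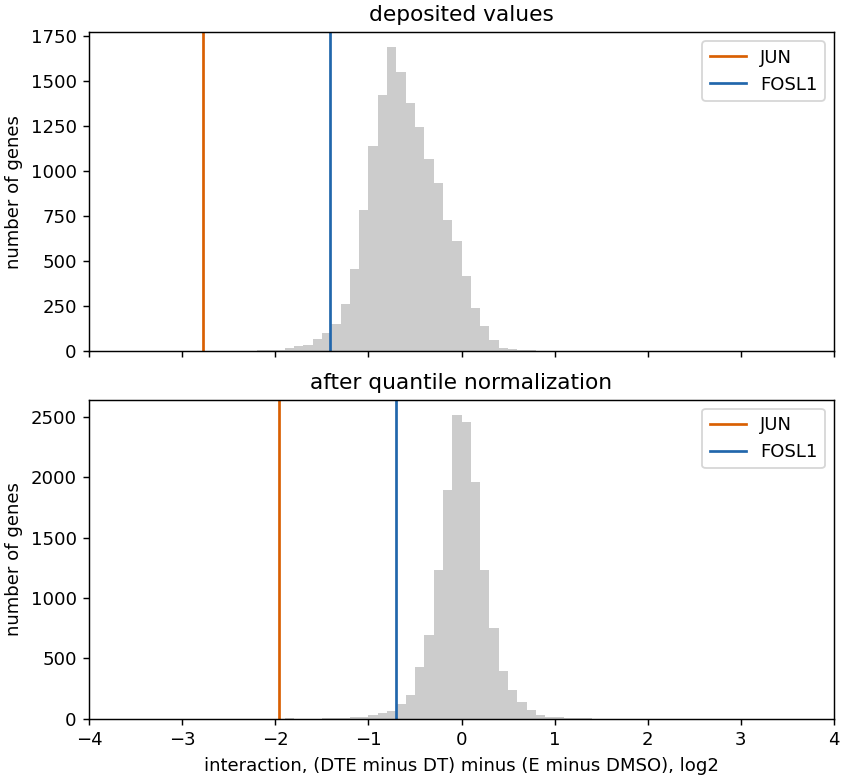
Number of genes by interaction, (DTE minus DT) minus (E minus DMSO) on the log2 scale, in bins of 0.1, for deposited values (top) and after quantile normalization (bottom). Lines mark JUN at -2.77 and -1.97 and FOSL1 at -1.41 and -0.70, with JUN beyond nearly all genes and FOSL1 in the left tail.

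Within an array, the difference between log2 JUN and log2 FOSL1 is free of any factor that scales the whole array. It was 2.10, 1.84 and 1.92 in DTE, 2.31, 2.21 and 2.36 in DT, 0.19, -0.15 and -0.19 in E, and -1.09, -0.92 and -1.19 in DMSO. All arrays with dabrafenib and trametinib lay above all arrays without them. Across both entinostat states, dabrafenib plus trametinib raised it by 2.68 (exact stratified permutation p = 0.005, two-sided, the smallest that 400 regroupings allow). Across both DT states, entinostat changed it by 0.34 (exact p = 0.155), an average of unlike changes: the means were 1.95 ± 0.13 in DTE and 2.30 ± 0.08 in DT, against -0.05 ± 0.21 in E and -1.07 ± 0.14 in DMSO (SD, n = 3 each). The difference shows that the 2 genes changed unequally, and not which one moved.

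**Figure D3:**
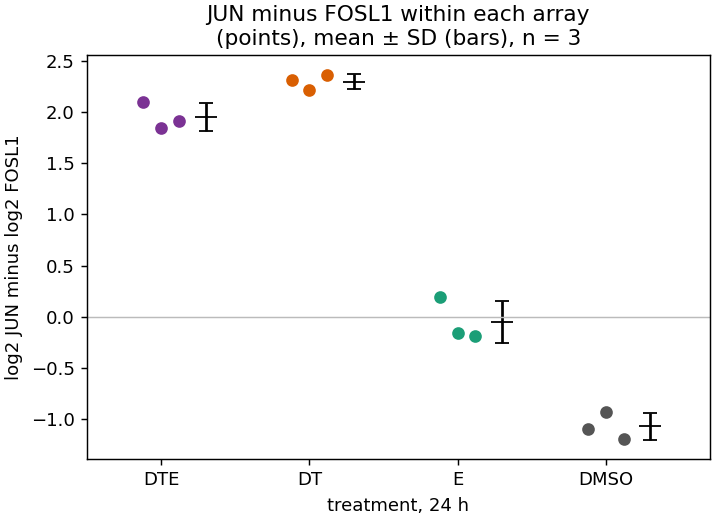
Log2 JUN minus log2 FOSL1 within each array in DTE, DT, E and DMSO cells. Points are arrays and bars are mean ± SD (n = 3); the DTE and DT arrays lie between 1.84 and 2.36, all above the E and DMSO arrays.

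All 7 genes for JUN and FOS proteins were measured. FOSL2, which encodes Fra-2, had the highest correlation with JUN among them. Its intensity averaged 50.7 ± 3.21 in DTE, 87.5 ± 14.2 in DT, 70.6 ± 11.9 in E and 49.8 ± 4.54 in DMSO (SD, n = 3 each). It rose in DT against DMSO (0.80 ± 0.15, quantile 1.02) and fell in DTE against DT in deposited values (-0.78 ± 0.15, quantile -0.09, adjusted p = 0.53). Over the 12 arrays FOSL2 correlated with JUN at 0.88, or 0.90 after quantile normalization, and JUN with FOSL1 at -0.05, or -0.55, where the points share arrays and their overall level.

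JUNB, a JUN relative that can restrain JUN, averaged 168 ± 14.7 in DTE, 139 ± 15.8 in DT, 268 ± 63 in E and 161 ± 24.2 in DMSO (SD, n = 3 each). It rose in E against DMSO (0.72 ± 0.17, quantile 0.64), and in DTE against DMSO it measured 0.07 ± 0.17 in deposited values (adjusted p = 0.73) and 1.13 after quantile normalization (adjusted p = 2.6e-06). JUND, the JUN relative known for steady expression, averaged 52.9 ± 4.29 in DTE, 82.5 ± 5.03 in DT, 130 ± 13.7 in E and 88.0 ± 4.19 in DMSO (SD, n = 3 each). It rose in E against DMSO (0.56 ± 0.13, quantile 0.41), and in DTE against DMSO it fell in deposited values (-0.74 ± 0.13) and rose after quantile normalization (0.28, adjusted p = 0.013).

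FOS, the founding FOS gene and an immediate early gene, averaged 30.8 ± 4.97 in DTE, 38.5 ± 2.12 in DT, 47.8 ± 9.16 in E and 38.2 ± 9.58 in DMSO (SD, n = 3 each). It missed the threshold in DT against DMSO (0.04 ± 0.17, adjusted p = 0.91, quantile 0.22, adjusted p = 0.25). FOSB averaged 32.4 ± 5.03 in DTE, 55.5 ± 3.17 in DT, 68.4 ± 12.4 in E and 49.1 ± 5.88 in DMSO (SD, n = 3 each). In E against DMSO it rose in deposited values (0.47 ± 0.16, adjusted p = 0.029), and its quantile value was 0.20 (adjusted p = 0.23).

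Counted over the 7 genes, 1 was called higher and 3 lower in DTE against DMSO, 0 and 5 in DTE against DT, 0 and 7 in DTE against E, 2 and 1 in DT against DMSO, and 5 and 0 in E against DMSO. After quantile normalization the counts were 5 and 1, 1 and 2, 4 and 1, 4 and 1, and 3 and 0, in that order. In the interaction 0 were higher and 6 lower in deposited values, and after quantile normalization the 2 that stayed lower were JUN and FOSL1. Over all genes the shares called lower were 60.8% in DTE against DMSO, 54% in DTE against DT, 78.5% in DTE against E and 62.5% in the interaction, or 22.4%, 17.9%, 9.99% and 2.12% after quantile normalization. Most genes fell in these comparisons in deposited values, so the lower calls are not particular to the 7 genes. The shares called higher in them were 4.26%, 4.09%, 0.247% and 0.206%, or 20.5%, 16.4%, 10.1% and 2.08% after quantile normalization. In DT against DMSO 4.72% of all genes were higher and 23.1% lower, or 15.1% and 14.6% after quantile normalization. In E against DMSO these shares were 20.8% and 4.81%, or 15.1% and 16.3%. The median change of the 7 was -0.30, -0.78, -0.65, 0.04 and 0.49 in the order of the comparisons above, and -1.25 in the interaction. FOSL1 was the single gene of the 7 called lower in DT against DMSO, under both scalings.

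**Figure D4:**
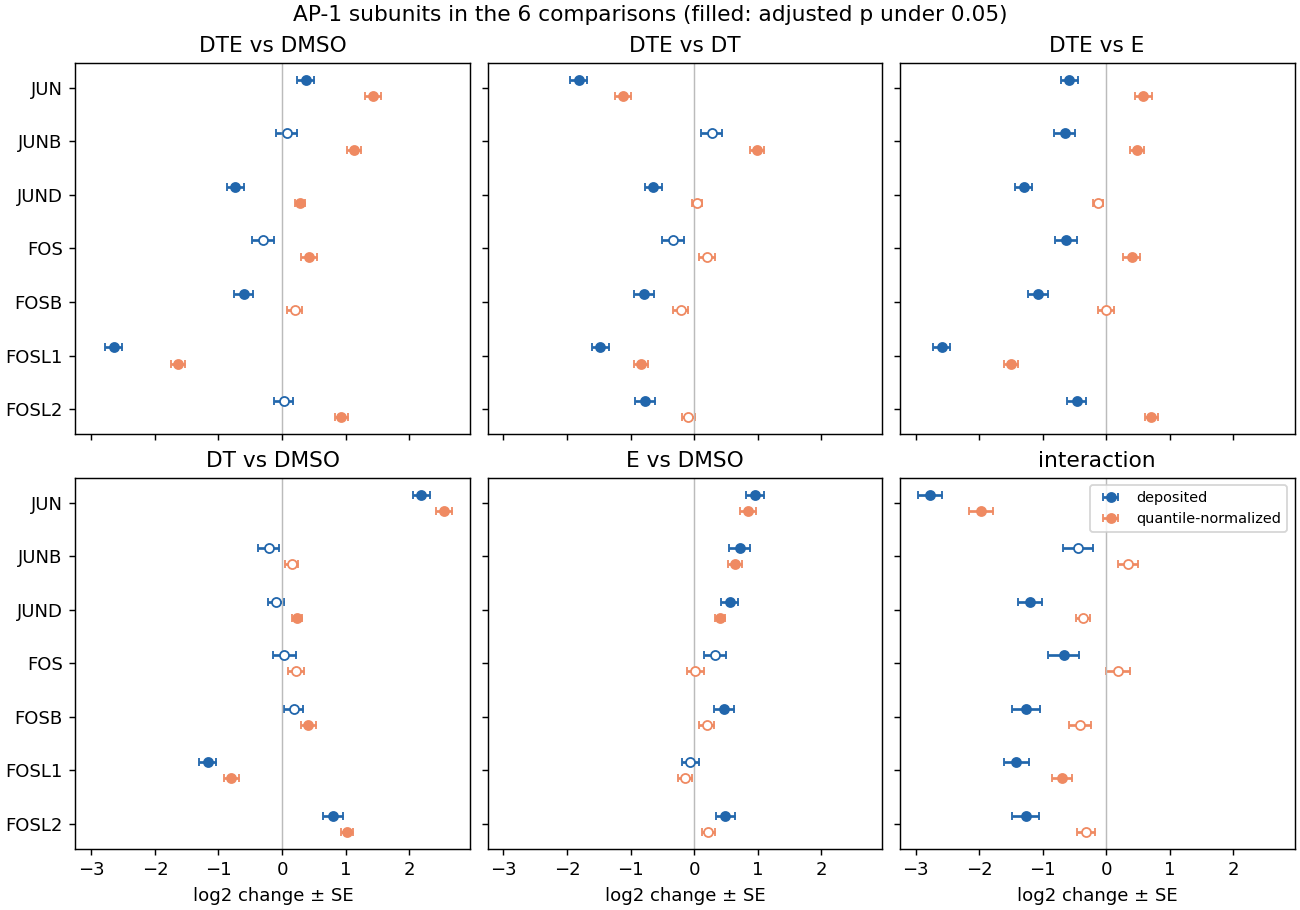
Log2 change ± SE of the 7 AP-1 subunit genes in the 6 comparisons, for deposited (blue) and quantile-normalized (orange) values, with filled points where the adjusted p was under 0.05. JUN is far to the right in DT vs DMSO (2.19) and far to the left in the interaction (-2.77), and FOSL1 is the gene farthest left in DTE vs DMSO (-2.65).

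Of the ATF, BATF and JDP proteins that can pair with JUN or FOS proteins, 4 of 8 genes were measured. ATF3, a stress-induced partner of JUN, had an intensity of 27.3 ± 3.95 in DTE, 18.4 ± 5.10 in DT, 32.4 ± 9.15 in E and 12.3 ± 2.84 in DMSO (SD, n = 3 each), where DMSO was not well above background. It was at least 2.01-fold higher in DTE than in DMSO (adjusted p = 2.5e-05), at least 1.33-fold higher in DT (adjusted p = 0.039) and at least 2.33-fold higher in E (adjusted p = 1.6e-05), where a bound sets the dim arrays at the background level. ATF3 also rose in DTE against DT (0.59 ± 0.21, quantile 1.12), whereas JUN fell there. ATF4, a mediator of the integrated stress response, ATF2, a JNK substrate, and JDP2, a repressor that pairs with JUN, fell in DTE against DMSO in deposited values (-0.91 ± 0.13, -0.95 ± 0.14 and -0.66 ± 0.15), with quantile values of 0.14, 0.10 and -0.05 that missed the threshold.

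MAF proteins form a related leucine zipper family, with 5 of 7 genes measured. MAF itself was, like JUN, highest in DT, with 123 ± 9.41 in DTE, 322 ± 43.8 in DT, 189.7 ± 37.6 in E and 175 ± 9.15 in DMSO (SD, n = 3 each). It rose in DT against DMSO (0.87 ± 0.15, quantile 1.23) and fell in DTE against DT (-1.39 ± 0.15, quantile -0.66). Unlike JUN, MAF measured 0.09 ± 0.15 in E against DMSO (adjusted p = 0.71, quantile 0.01), and in DTE against DMSO it fell in deposited values (-0.52 ± 0.15) and rose after quantile normalization (0.57, adjusted p = 0.0013). MAFF, a small MAF protein without an activation domain, fell in DT against DMSO (-0.76 ± 0.19, quantile -0.55), as did another, MAFG, in deposited values (-0.55 ± 0.15, quantile -0.20, adjusted p = 0.11). NRL, known from the retina, measured -0.02 ± 0.14 in DT against DMSO (adjusted p = 0.93).

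The JNK pathway, which activates JUN protein, had 10 of 15 listed genes measured. In DT against DMSO 0 rose and 2 fell, or 2 and 2 after quantile normalization, where 4.72% of all genes rose and 23.1% fell, or 15.1% and 14.6%. MAP3K5, which encodes the stress kinase ASK1, fell with dabrafenib plus trametinib, both without and with entinostat, at -1.97 ± 0.16 in DT against DMSO (quantile -1.59) and -1.94 ± 0.16 in DTE against E (quantile -0.96). DUSP10, a phosphatase for JNK and p38, had 381 ± 29.7 in DTE, 370 ± 31.3 in DT, 871 ± 134 in E and 786 ± 72.5 in DMSO (SD, n = 3 each). It fell in DT against DMSO (-1.09 ± 0.14, quantile -0.72). MAP3K11, which encodes the kinase MLK3, fell in E against DMSO (-1.01 ± 0.18, quantile -1.13) and in DTE against DT (-1.80 ± 0.18, quantile -1.28). MAPK8IP2, a JNK scaffold, rose in E against DMSO (0.71 ± 0.14, quantile 0.38). In DTE against DMSO 8 of the 10 fell in deposited values, beside 60.8% of all genes, and 2 fell and 2 rose after quantile normalization, beside 22.4% and 20.5%.

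Of 11 listed genes on the ERK side, 5 were measured. In DT against DMSO 1 fell, ARAF, a RAF kinase (-0.51 ± 0.14, quantile -0.14, adjusted p = 0.36), and 0 rose, while 2 rose after quantile normalization. Of all genes, 23.1% fell and 4.72% rose in that comparison, or 14.6% and 15.1% after quantile normalization. MAPK3, which encodes ERK1, measured 0.03 ± 0.14 there (adjusted p = 0.92, quantile 0.38, adjusted p = 0.012). MAPK7, which encodes ERK5, measured -0.37 ± 0.15 (adjusted p = 0.076, quantile -0.02), and PEA15, a protein that holds ERK in the cytoplasm, measured -0.07 ± 0.13 (adjusted p = 0.78, quantile 0.20). In DTE against DMSO 4 of the 5 fell in deposited values, beside 60.8% of all genes, and 2 fell and 1 rose after quantile normalization, beside 22.4% and 20.5%.

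Of the factors that act on the turnover of JUN protein, 7 of 11 genes were measured. TRIB1, a pseudokinase that guides the ligase COP1, had an intensity of 16.7 ± 1.66 in DTE, 29.0 ± 3.11 in DT, 63.4 ± 13.9 in E and 106 ± 11.2 in DMSO (SD, n = 3 each). It fell in DTE against DMSO (-2.67 ± 0.16, quantile -2.01), in DT against DMSO (-1.87 ± 0.16, quantile -1.50) and in E against DMSO (-0.76 ± 0.16, quantile -0.89), so that its lowest level, like that of FOSL1, was in DTE. TRIB2, a relative of TRIB1, fell in DT against DMSO (-0.69 ± 0.15, quantile -0.30), and so did the cullin CUL4A (-0.77 ± 0.15, quantile -0.42). DET1, which links COP1 to that cullin, measured 0.34 ± 0.13 in deposited values (adjusted p = 0.06) and rose after quantile normalization (0.67, adjusted p = 1.3e-04). Of the 7, 0 rose and 3 fell in DT against DMSO, or 3 and 3 after quantile normalization, beside 4.72% and 23.1% of all genes, or 15.1% and 14.6%.

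Among immediate early genes outside AP-1, 11 of 21 were measured. IER3, a survival factor induced by ERK, had 84.4 ± 3.19 in DTE, 60.7 ± 9.78 in DT, 272 ± 24.6 in E and 138 ± 13.8 in DMSO (SD, n = 3 each). It fell in DT against DMSO (-1.20 ± 0.14, quantile -0.83), rose in E against DMSO (0.98 ± 0.14, quantile 0.89) and rose in DTE against DT (0.49 ± 0.14, quantile 1.21). IER2, an early nuclear factor, fell in DTE against E (-1.60 ± 0.14, quantile -0.63), as did the zinc finger factor KLF6 (-1.38 ± 0.15, quantile -0.24). SRF, the serum response factor, fell in DTE against DT (-1.02 ± 0.14, quantile -0.29). In DT against DMSO 5 of the 11 fell and 0 rose, with a median of -0.38, and after quantile normalization 2 fell and 1 rose. Over all genes 23.1% fell and 4.72% rose, with a median of -0.12, or 14.6% and 15.1% after quantile normalization. In E against DMSO 4 rose and 0 fell, or 3 and 1 after quantile normalization, beside 20.8% and 4.81% of all genes, or 15.1% and 16.3%.

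Textbook AP-1 targets were measured for 19 of 27 genes. Among these, MMP1, MMP10, MMP13 and CCL2 lay below the background level on every array, and CXCL8 did so on all arrays outside E. The counts below include these genes, so a gene not called may be one without a detectable signal. In DT against DMSO 10 of the 19 fell and 0 rose (median -0.37), or 7 and 3 after quantile normalization (median -0.16). Over all genes 23.1% fell and 4.72% rose (median -0.12), or 14.6% and 15.1% after quantile normalization. CCND1, which encodes cyclin D1, fell there (-1.37 ± 0.14, quantile -1.01), and so did the hyaluronan receptor CD44 (-0.78 ± 0.15, quantile -0.43). MMP14, a membrane metalloproteinase, measured 0.11 ± 0.17 (adjusted p = 0.71, quantile 0.47) and fell in DTE against DT (-2.14 ± 0.17, quantile -1.45). SPP1, which encodes osteopontin, had 185 ± 18.3 in DTE, 121 ± 4.45 in DT, 585 ± 143 in E and 124 ± 15.6 in DMSO (SD, n = 3 each). It rose in E against DMSO (2.22 ± 0.16, quantile 2.12) and in DTE against DT (0.60 ± 0.16, quantile 1.31). In E against DMSO 9 of the 19 rose and 1 fell, or 8 and 4 after quantile normalization, beside 20.8% and 4.81% of all genes, or 15.1% and 16.3%. In DTE against DMSO 3 rose and 12 fell, or 6 and 6, beside 4.26% and 60.8% of all genes, or 20.5% and 22.4%.

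Genes of the dedifferentiated, AP-1-high melanoma state were measured for 8 of 13 entries. In DT against DMSO 0 rose and 3 fell, or 2 and 2 after quantile normalization, beside 4.72% and 23.1% of all genes, or 15.1% and 14.6%. AXL, a receptor tyrosine kinase and a marker of that state, fell in DT against DMSO (-0.70 ± 0.13, quantile -0.32), and so did the matrix protein gene TNC in deposited values (-0.47 ± 0.15, quantile -0.20, adjusted p = 0.085). NGFR, a neural crest receptor, and FN1, which encodes fibronectin, rose in E against DMSO (0.70 ± 0.14, quantile 0.64, and 0.76 ± 0.13, quantile 0.72). MITF, the master regulator of melanocytes and low in that state, was named here after its values were seen. Its intensity was 104, 114 and 124 in DTE, 126, 116 and 124 in DT, 320, 403 and 488 in E, and 574, 537 and 454 in DMSO. It fell in DT against DMSO (-2.09 ± 0.15, adjusted p = 5.5e-10, quantile -1.73) and in DTE against DMSO (-2.19 ± 0.15, adjusted p = 4.2e-11, quantile -1.10). MITF was thus low in both groups with dabrafenib and trametinib. Of 7 melanocyte markers, MITF among them, 1 rose and 4 fell in DT against DMSO, or 3 and 2 after quantile normalization. Over all genes 4.72% rose and 23.1% fell there, or 15.1% and 14.6%. In DTE against DMSO 0 of these 7 rose and 6 fell, or 1 and 3. Of the 8 genes of the state, 0 rose and 5 fell in DTE against DMSO, or 3 and 0. The all-gene shares in DTE against DMSO were 4.26% and 60.8%, or 20.5% and 22.4%.

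The genes whose values followed JUN most closely over the 12 arrays, among 7290 genes whose highest group mean was above that of the median gene, were the protocadherin PCDH1 (Pearson r = 0.97), the antisense RNA LPP-AS2 (0.96), FHDC1 (0.96), TP53INP2 (0.95) and LRRC15 (0.95). FHDC1, for example, had geometric means of 31.4 in DTE, 92.0 in DT, 47.1 in E and 24.3 in DMSO. After quantile normalization these 5 genes kept correlations of 0.94 to 0.98 with JUN, at ranks 45, 2, 6, 14 and 28 in the order named. The most opposite in deposited values were TM4SF1 (-0.68), PDGFD (-0.63) and IRF4 (-0.62). By quantile values they stood only at ranks 1200, 646 and 675 from the lowest correlation. In the 250 bases before the start, LRRC15 held the AP-1 consensus TGANTCA and TP53INP2 held TGACGTCA, and the other 3 of the 5 most alike held none of the 4 AP-1 or CRE elements.

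FOSL1 was followed most closely by DRG1 (0.995), MRPL58 (0.995), MRPL46 (0.99), TIMM21 (0.99) and TDP1 (0.99), with JAKMIP2 (-0.66), HM13-AS1 (-0.53) and FLG (-0.52) at the other end. MRPL58 and MRPL46 encode parts of the mitochondrial ribosome. The array level is lowest in DTE, as these genes are, and after quantile normalization the 5 correlations were 0.88 to 0.97. Their ranks were then 160, 24, 5, 8 and 48 of 7290 genes. JAKMIP2, HM13-AS1 and FLG were then at ranks 128, 118 and 596 from the lowest correlation. The part of the array level in this likeness was not tested beyond that normalization. These correlations describe 12 arrays in 4 groups.

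Beside JUN on chromosome 1, the divergent transcript JUN-DT rose in DT against DMSO (0.51 ± 0.17, adjusted p = 0.027, quantile 0.51, adjusted p = 0.024), and in E against DMSO it measured 0.39 ± 0.17 (adjusted p = 0.1). Beside FOSL1, the neighbours CTSW, FIBP, CCDC85B, C11orf68 and DRAP1 measured between -0.60 and -0.15 in DT against DMSO, and 3 of them fell, FIBP (adjusted p = 0.0043), C11orf68 (adjusted p = 0.0045) and DRAP1 (adjusted p = 0.011). After quantile normalization their values there lay between -0.33 and -0.07, and none of the 5 passed the threshold. Of all genes, 23.1% were called lower in DT against DMSO, or 14.6% after quantile normalization. The median gene changed by -0.12 in deposited values. These neighbours were chosen after the values of JUN and FOSL1 were seen.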

How the data were processed

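Total RNA of 12 cultures was hybridised to Affymetrix arrays, with ERCC spike-in mix added before extraction per the labels. Each probe set has a deposited linear intensity, which the authors made with RMA and the Transcriptome Analysis Console according to the submitters' processing notes; versions, order and any rescaling between arrays are not given there. Of 29398 probe sets, 14750 were named through a platform table and RefSeq symbols, and the brightest of each gene gave 14582 genes. Because the values were linear and not log2, log2 was taken here, with no pseudocount or filter. A model with 1 mean for each group was fitted to all arrays by lmFit and eBayes (limma 3.58.1 under R 4.3.3), with Benjamini-Hochberg adjustment over all genes within each of 6 comparisons and a threshold of 0.05. The number of arrays limits the precision.

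JUN and FOSL1 and the 11 gene lists (138 entries, 88 measured) were chosen with earlier results of these data known. Named are JUN, FOSL1, the 7 AP-1 subunits, up to 4 genes with the smallest adjusted p of each other list, and the 5 genes most and 3 least correlated with each of JUN and FOSL1. Quantile values of listed genes were added after the values were seen. A group was called not well above background when its mean was at or below a background level, taken on each array as percentile 95 among the dimmest 25% of genes and averaged over the group. Same-numbered replicates did not deviate together (correlation of -0.22 to 0.13 over 18 pairs), so numbers were not taken to pair arrays. Alternatives were other scalings, log2(value + 16), a filter, other variance models, only the groups compared, a replicate block and leaving out each array.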

Additional observations from a re-analysis of the deposited data

Results flagged for a closer look

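The effect of entinostat differed with and without dabrafenib plus trametinib, by the interaction term, for 6 of the 7 AP-1 subunit genes in deposited values, where 62.5% of all genes were called lower in that term. JUN had -2.77 (quantile -1.97) and FOSL1 -1.41 (quantile -0.70), and both passed the threshold under both scalings. FOSL2 had -1.27 (quantile -0.31), FOSB -1.25 (quantile -0.42), JUND -1.20 (quantile -0.36) and FOS -0.67 (quantile 0.18), and these 4 missed the threshold after quantile normalization, with adjusted p of 0.26, 0.2, 0.1 and 0.69.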

How the results depend on the processing

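Of 405 values recomputed under the alternatives, 388 kept their direction and their side of the threshold, or for counts of genes stayed within 1.5 times. JUN in DTE against E (-0.58 in deposited values) reversed to 0.58 after quantile normalization, to 0.35 with arrays centred on their median and to 0.54 with arrays centred on the genes above the median gene. FOSL1 in E against DMSO (-0.06) was called with median centring (-0.35, adjusted p = 0.02), and reversed to 0.022 with array weights and to 0.0048 without E replicate 1, short of the threshold both times. JUN in DTE against DMSO ranged from 0.28 to 0.46 when each array was left out, and FOSL1 in E against DMSO from -0.12 to 0.0048. Genes called after quantile normalization numbered 6261 (9490 in deposited values) in DTE against DMSO, 4993 (8466) in DTE against DT, 2923 (11489) in DTE against E and 612 (9147) in the interaction. The interaction gave 2540 calls with median centring and 3016 with centring on the genes above the median, which gave 6248 (4056) in DT against DMSO. Array weights, whose estimation did not reach its convergence tolerance, gave 7226 (3734) in E against DMSO. When only brighter genes were tested, 7204 (11489) were called in DTE against E. That count is lower since fewer genes were tested, and nearly all of those tested were called. The causes of the other changes were not tested. With the replicate block, JUN kept 2.19 in DT against DMSO (adjusted p = 1.1e-10) and -2.77 in the interaction (adjusted p = 3.7e-09), and no call of JUN or FOSL1 changed; within pairs of the same number the exact p of JUN minus FOSL1 was 0.03125 for dabrafenib plus trametinib, the smallest that 64 regroupings allow. Centring on spike-ins and averaging several probe sets were not run, since no spike-in probe set was named and JUN and FOSL1 had 1 probe set each. Signal over background limits ATF3, whose DMSO level was dim, and other genes too. JAKMIP2 had a geometric mean of 7.91 in DMSO, where the background was 12.9. PDGFD had 12.9 in DT, where the background was 13.0. Of the counted genes, MMP1, MMP10, MMP13 and CCL2 lay below background on every array. MAPK8IP1 and MAPK10 lay below it on all arrays outside DTE.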
